A study of Mus musculus with 6 samples.

Results

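The genes described here are 10 ligands and receptors of the vascular endothelial growth factor (VEGF) and angiopoietin families, read by gene symbol from deposited tables of 55860 rows. They are the VEGF ligands Vegfa, Vegfb, Vegfc and Pgf, the VEGF receptors Flt1 and Kdr, the angiopoietins Angpt1 and Angpt2, and the receptors Tek and Tie1. Each symbol matched 1 row, and 7 of the 10 genes had enough reads for a test. The cells were granulosa cells from ovaries of Il22r-/- mice, labelled as lacking the receptor for the cytokine interleukin-22, and of Il22r+/+ mice, with 3 libraries per genotype. By the protocol in the labels, cells of both genotypes were isolated on a density gradient and kept for 12 h in medium with 10% serum before RNA was taken. Ovulation is the subject of the series title, and the comparison is of transcript levels with and without the receptor. The labels used here name no age, strain, deleted exon or number of animals behind a library.

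VEGFA is the main growth factor for blood vessels and acts through the tyrosine kinase receptor KDR, while FLT1 binds VEGFA tightly and signals weakly, so that it also acts as a trap. VEGFB and placental growth factor bind FLT1, and VEGFC and VEGFD act on lymphatic vessels through FLT4. Angiopoietin-1 activates the receptor TEK and steadies vessels, angiopoietin-2 competes with it or activates TEK weakly depending on context, and TIE1 modulates TEK. The granulosa layer of the growing follicle holds no vessels, and its VEGF is known for drawing vessels into the follicle wall and the corpus luteum around ovulation.

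Promoter sequences for 8 of the 10 genes (10 transcription starts) were in the RefSeq table for build GRCm38.p6. The 250 bases before the start are shown for Vegfa, Kdr and Tek, the 3 of these 8 genes whose transcript level passed the test for a genotype difference. They are Vegfa at chr17:46032378-46032627 (minus strand, the upstream of its 2 listed starts), Kdr at chr5:75978456-75978705 (minus strand) and Tek at chr4:94739039-94739288 (plus strand), written 5′ to 3′ along the gene. Capitals mark matches, on either strand, to the GC box GGGCGG or to GCGTG, a variant of the hypoxia response core. No match of one motif overlaps a match of another in these sequences.
Vegfa: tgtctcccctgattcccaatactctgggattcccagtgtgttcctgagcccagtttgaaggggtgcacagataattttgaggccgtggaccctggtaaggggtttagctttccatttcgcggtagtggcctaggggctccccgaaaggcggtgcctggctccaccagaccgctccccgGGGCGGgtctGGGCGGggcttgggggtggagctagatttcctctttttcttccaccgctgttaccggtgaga
Kdr: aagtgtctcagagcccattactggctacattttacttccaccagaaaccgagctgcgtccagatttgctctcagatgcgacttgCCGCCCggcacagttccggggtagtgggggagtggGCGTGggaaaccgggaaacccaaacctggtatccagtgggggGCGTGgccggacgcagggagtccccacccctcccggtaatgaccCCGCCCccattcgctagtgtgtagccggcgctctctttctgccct
Tek: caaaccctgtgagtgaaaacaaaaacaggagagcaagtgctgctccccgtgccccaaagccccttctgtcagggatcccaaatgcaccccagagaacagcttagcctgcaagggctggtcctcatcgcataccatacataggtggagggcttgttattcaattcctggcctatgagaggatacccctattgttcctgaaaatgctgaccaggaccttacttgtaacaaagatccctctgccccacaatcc
Positions are counted back from -1, the base before the start, and give the leftmost base of a match. The Vegfa sequence held GC boxes at -72 and -62. The Kdr sequence held GC boxes at -166 and -45 and GCGTG at -131 and -89. Tek held none of the 5 motifs searched, and its 51.2% of G and C was below the 59.2% of Vegfa and the 61.6% of Kdr. Over the 10 starts, GGGCGG was found before 7, GCGTG before 5 and ACGTG, the other hypoxia response core, before 1. The STAT motif TTCNNNGAA and the forkhead motif TGTTTAC were found before 0 of them. In 32851 mouse promoter windows of the same length, 32.7% held GGGCGG, 28.2% GCGTG, 16.6% ACGTG, 7.02% TTCNNNGAA and 3.17% TGTTTAC. These are letter matches within 1 short window and do not show binding.

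Counted reads ran from 14.95 M to 18.12 M per Il22r-/- library and from 17.43 M to 17.7 M per Il22r+/+ library. Mitochondrially encoded genes took 2.08% to 2.72% of reads in Il22r-/- and 2.64% to 2.81% in Il22r+/+. On the second principal component (4.21% of variance, 500 genes) Il22r-/- replicate 3 stood apart at -14.5, against -1.22 to 8.93 for the other 5 libraries, and results that rest on it are given without it as well. Il22ra1, taken as the targeted gene, had 5, 2 and 0 reads in Il22r-/- and 1, 5 and 4 reads in Il22r+/+, too few to check the genotype labels. Of 14 granulosa markers 12 were tested (5 higher, 3 lower in Il22r-/-), 66.7% called, against 45.7% of all tested genes. The 14 markers summed to 9207 to 10050 CPM in Il22r-/- and 8147 to 9117 CPM in Il22r+/+. The inhibin subunit Inha was among them (2605 ± 116 CPM in Il22r-/- and 3202 ± 429 CPM in Il22r+/+, SD, n = 3 each). The granulosa receptor genes Fshr and Amhr2 and the regulator Nr5a2 rose in Il22r-/- (log2 changes of 4.50, 1.47 and 1.73). The granulosa regulators Foxl2 and Nr5a1 and the gap junction gene Gja1, named after their values were seen, fell (log2 changes of -0.47, -0.53 and -0.56), and 6 markers were lower in the DESeq2 Wald test and with no filter. Fshr, the receptor of follicle-stimulating hormone, was near the detection limit in Il22r+/+ (5.99 ± 1.10 CPM in Il22r-/- libraries, against 0.257 ± 0.183 CPM in Il22r+/+ libraries). Cyp19a1, the aromatase of granulosa cells, named after its values were seen, was scarce in both, at 0.0219 ± 0.0379 CPM in Il22r-/- libraries, against 0.709 ± 0.683 CPM in Il22r+/+ libraries. CPM are read counts after TMM scaling to a common library size, and FPKM, the authors' values per kilobase of gene, are used to set genes against each other.

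Angpt2 rose 3.79-fold in Il22r-/- cells, and Vegfa, the most abundant member, fell 1.26-fold. Kdr rose from a very low level, and Tek fell at the edge of the threshold. Vegfb, Vegfc and Angpt1 did not pass. A gene was called at a Benjamini-Hochberg adjusted p under 0.05 in edgeR's quasi-likelihood test, with adjustment over all 15227 tested genes. By this rule 4 of the 7 tested members were called, 2 higher and 2 lower, where 45.7% of all tested genes were called, 23.6% higher and 22.1% lower. Of all calls 51.6% were higher in Il22r-/-, and 63.6% when libraries were scaled by their size alone. The 7 are not a neutral sample, since Kdr and Vegfc passed the filter on low counts through their Il22r-/- libraries. In 5 of the 7 the libraries of the genotypes did not overlap, against 56.0% of all tested genes. The median log2 change was 0.74 over the 7 members and 0.03 over all tested genes.

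**Figure D1:**
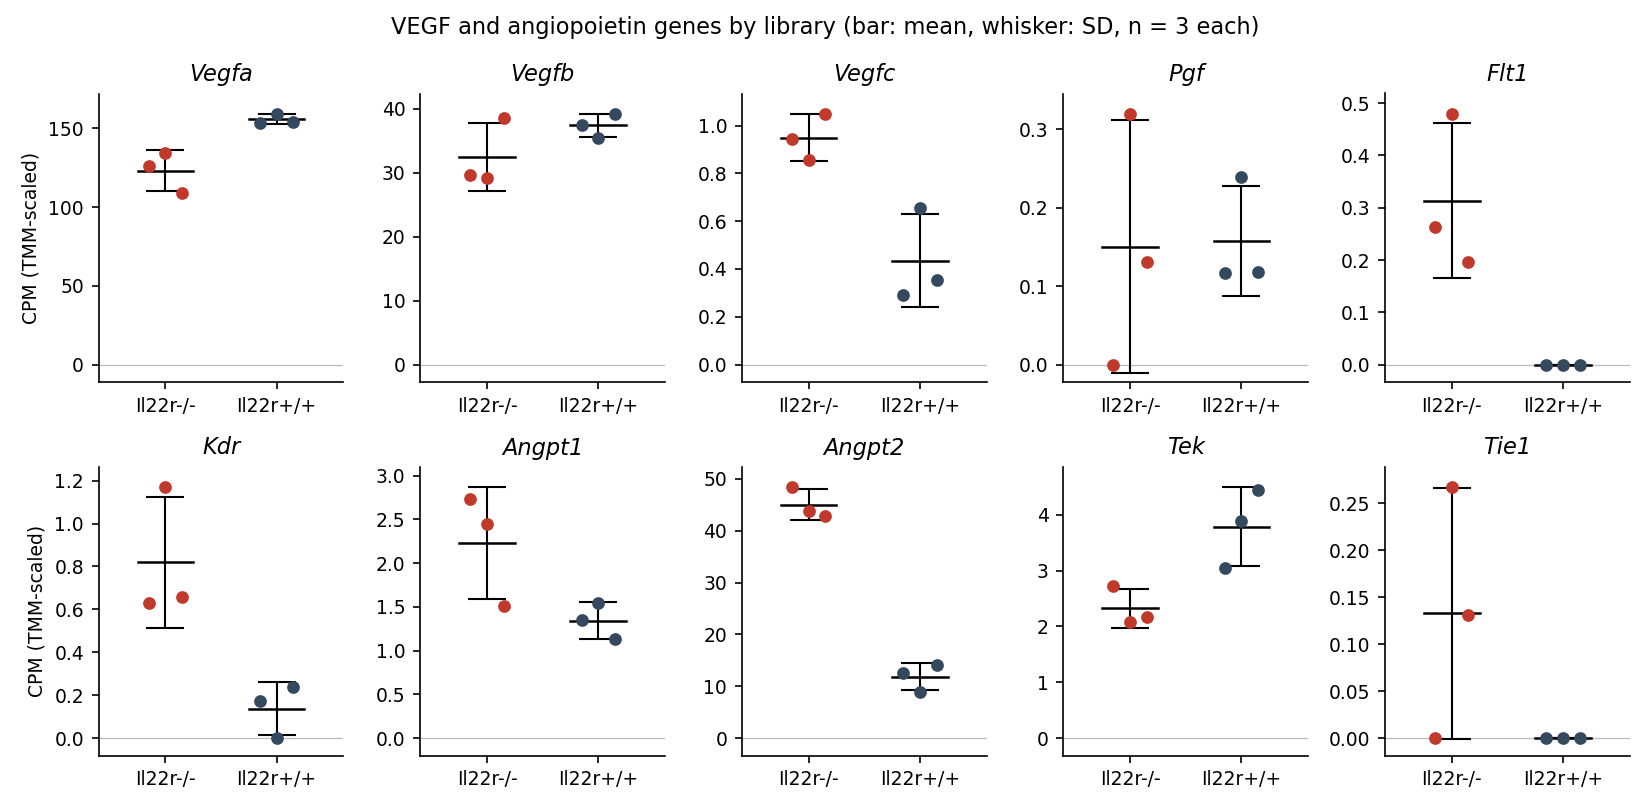
TMM-scaled CPM (vertical axes, one scale per gene) of the 10 genes in the 3 Il22r-/- libraries (red) and the 3 Il22r+/+ libraries (dark blue), with points for libraries, bars for means and whiskers for SD. Angpt2 lies at 42.8 to 48.4 CPM in Il22r-/- and at 8.95 to 14 CPM in Il22r+/+, and Flt1 and Tie1 have no reads in Il22r+/+.

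Vegfa (ENSMUSG00000023951, mm10 chromosome 17, 46016993 to 46032369, minus strand, 13 annotated transcripts) had 126.0, 134.3 and 108.8 CPM in Il22r-/- replicates 1 to 3, against 153.5, 159.4 and 154.2 CPM in Il22r+/+ replicates 1 to 3. Every Il22r-/- library lay below every Il22r+/+ library. The fall was 1.26-fold (log2 change -0.34 ± 0.09, standard error of the fit; edgeR quasi-likelihood adjusted p = 0.0083). Scaled by library size alone, which raises the median gene by 0.103 on the log2 scale, the log2 change was -0.23 (edgeR adjusted p = 0.0483). The counts do not separate the splice forms of Vegfa, which differ in how tightly they bind matrix. Per length, Vegfa ranked 1585 among 21933 protein-coding genes in Il22r-/- and 1288 in Il22r+/+ by mean FPKM.

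Vegfb (ENSMUSG00000024962, chromosome 19, 6982473 to 6987651), the ligand linked to fatty acid uptake by endothelium, had 29.6, 29.2 and 38.6 CPM in Il22r-/- and 37.5, 35.5 and 39.2 CPM in Il22r+/+. Il22r-/- replicate 3 lay inside the Il22r+/+ range and the other libraries of that genotype below it. The log2 change of -0.21 ± 0.12 did not pass (edgeR adjusted p = 0.17), and without Il22r-/- replicate 3 it was -0.37 (edgeR adjusted p = 0.00252). Vegfa over Vegfb, a ratio of FPKM within each library that no scaling changes, was 1.6, 1.72 and 1.06 in Il22r-/- and 1.53, 1.68 and 1.47 in Il22r+/+ (exact two-sided permutation p = 0.9).

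Vegfc (ENSMUSG00000031520, chromosome 8, 54077606 to 54187096), the lymphatic growth factor, had 18, 16 and 16 reads in Il22r-/- and 5, 11 and 6 reads in Il22r+/+. The groups did not overlap, at 0.95 ± 0.0987 CPM in Il22r-/- and 0.435 ± 0.195 CPM in Il22r+/+ (SD, n = 3 each). The log2 change of 1.11 ± 0.43 missed the threshold (edgeR adjusted p = 0.0562). Leaving out Il22r+/+ replicate 2 brought it past (1.52, edgeR adjusted p = 0.0372). With all 6 libraries it also passed with library size alone (edgeR adjusted p = 0.0389) and in limma-voom (adjusted p = 0.0473). Limma on log2(FPKM + 1) and on log2(FPKM + 0.1) passed too (adjusted p of 0.0282 and 0.0292). In 9 of 14 alternatives it did not pass, and over all of them the adjusted p ran from 0.0282 to 0.191. Pgf (ENSMUSG00000004791, chromosome 12, 85166635 to 85177790), placental growth factor, had 0, 6 and 2 reads in Il22r-/- and 2, 4 and 2 reads in Il22r+/+, below the filter. Pooled, that was 8 reads per genotype, a ratio of 0.957 with an exact 95% interval of 0.313 to 2.93 (counting error only). A Pgf difference within that interval was not detectable at this depth.

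Angpt2 (ENSMUSG00000031465, chromosome 8, 18690263 to 18741562, minus strand), the context-dependent TEK ligand, had 48.4, 43.7 and 42.8 CPM in Il22r-/-, against 12.6, 8.95 and 14 CPM in Il22r+/+. The lowest Il22r-/- library stood well above the highest Il22r+/+ library. Angpt2 rose 3.79-fold (log2 change 1.92 ± 0.15, edgeR quasi-likelihood adjusted p = 4.74e-06), and over 15 alternatives the log2 change ran from 1.64 to 2.05 with no call lost. Its rank by mean FPKM among protein-coding genes was 3954 in Il22r-/- and 8486 in Il22r+/+.

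Angpt1 (ENSMUSG00000022309, chromosome 15, 42424723 to 42676977), the activating ligand of TEK, had 52, 46 and 23 reads in Il22r-/- and 23, 26 and 19 reads in Il22r+/+. As CPM this was 2.73, 2.45 and 1.51 in Il22r-/- and 1.35, 1.55 and 1.13 in Il22r+/+, so that Il22r-/- replicate 3 lay within the Il22r+/+ range. The log2 change of 0.74 ± 0.32 did not pass (edgeR adjusted p = 0.0795), and without Il22r-/- replicate 3 it was 0.93 and did (edgeR adjusted p = 0.0223). Gm17473 overlaps 14.2% of the Angpt1 exon length on the opposite strand and had 0 reads in every library. Angpt2 over Angpt1, by FPKM within a library, was 25, 25.1 and 40 in Il22r-/- and 13.2, 8.14 and 17.6 in Il22r+/+. The ratios did not overlap, and the exact two-sided permutation p was 0.1, the smallest that 3 against 3 libraries allow.

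**Figure D2:**
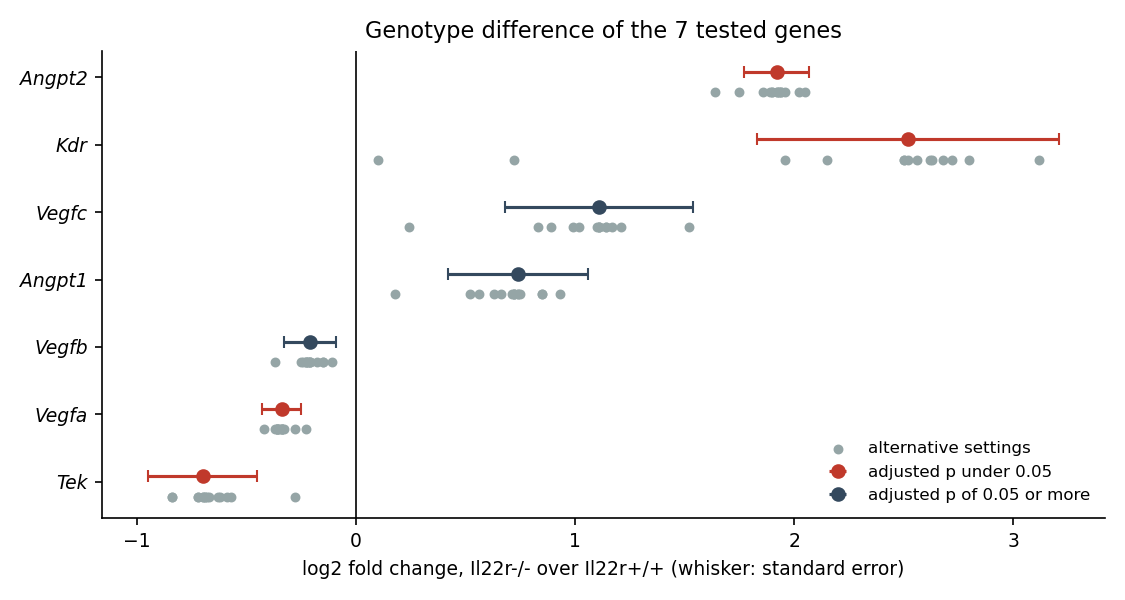
Log2 fold change of Il22r-/- over Il22r+/+ (horizontal axis) for the 7 tested genes, with the standard error as whisker, red where the edgeR adjusted p was under 0.05, and grey points for the alternative settings. Angpt2 stays between 1.64 and 2.05 under every alternative, while Kdr runs from 0.10 to 3.12, its low end coming from log2(FPKM + 1), which compresses low values.

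Receptor transcripts were scarce in both genotypes. Tek (ENSMUSG00000006386, chromosome 4, 94739289 to 94874976, plus strand), the angiopoietin receptor, had 52, 39 and 33 reads in Il22r-/- and 52, 65 and 75 reads in Il22r+/+. Scaled, these were 2.73, 2.08 and 2.17 CPM in Il22r-/- and 3.04, 3.88 and 4.44 CPM in Il22r+/+, with no overlap. The log2 change of -0.70 ± 0.25 passed (edgeR quasi-likelihood adjusted p = 0.0392), but only 7 of 15 alternatives kept the call. The adjusted p was 0.0728 with library size alone, 0.0665 in the DESeq2 Wald test, 0.0556 with no filter on low counts and 0.0751 with a replicate block. Leaving out Il22r-/- replicate 2 or 3, or Il22r+/+ replicate 2 or 3, gave edgeR adjusted p-values of 0.107, 0.0541, 0.0941 and 0.137. Angpt2 over Tek, by FPKM within a library, was 22.6, 26.8 and 25.2 in Il22r-/- and 5.30, 2.95 and 4.04 in Il22r+/+ (exact two-sided permutation p = 0.1, the smallest possible).

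Kdr (ENSMUSG00000062960, chromosome 5, 75932827 to 75978458, minus strand), the main signalling receptor of VEGFA, had 12, 22 and 10 reads in Il22r-/- and 3, 0 and 4 reads in Il22r+/+. The highest Il22r+/+ library was below the lowest Il22r-/- library, and Il22r-/- replicate 2 held as many reads as replicates 1 and 3 together. The log2 change of 2.52 ± 0.69 passed (edgeR quasi-likelihood adjusted p = 0.0122). It was 2.15 and lost the call without Il22r-/- replicate 2 (edgeR adjusted p = 0.0575), and was 3.12 without Il22r+/+ replicate 3. Pooled reads gave a ratio of 6.02 (exact 95% interval 2.69 to 15.8, counting error only). Limma on log2(FPKM + 1) gave 0.10 (adjusted p = 0.123).

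Flt1 (ENSMUSG00000029648, chromosome 5, 147561604 to 147726011), the decoy-like VEGF receptor, had 5, 9 and 3 reads in Il22r-/- and 0 reads in each Il22r+/+ library. A pooled count of 0 allows a floor of 3 reads, or 0.0591 CPM over the Il22r+/+ libraries together. The pooled Flt1 level in Il22r-/- was 5.42 times that floor. This ratio leaves out the counting error of the Il22r-/- reads and is not a lower bound. The exact intervals of pooled Flt1 did not overlap (0.187 to 0.513 CPM in Il22r-/- and 0 to 0.0727 CPM in Il22r+/+). Flt1 was below the filter, and with no filter the edgeR adjusted p was 0.00542. The count does not separate soluble from membrane-bound forms. Tie1 (ENSMUSG00000033191, chromosome 4, 118471191 to 118490061), the partner receptor of TEK, had 0, 5 and 2 reads in Il22r-/- and 0 reads in each Il22r+/+ library. Pooled, Tie1 in Il22r-/- was 2.23 times the same floor, all from replicates 2 and 3. This ratio is not a lower bound either. The exact intervals of pooled Tie1 overlapped (0.0531 to 0.272 CPM in Il22r-/- and 0 to 0.0727 CPM in Il22r+/+). The edgeR adjusted p of Tie1 with no filter was 0.106. Tek and Tie1 lie on the chromosome of Il22ra1, 40.9 Mb and 17.2 Mb from it.

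Flt1, Kdr and Tie1 are endothelial receptors with more reads in Il22r-/-, so markers of endothelial and blood cells were read beside them. Tek, which endothelium also carries, went the other way (log2 change -0.70) and is not in their sum. Its level was 2.73, 2.08 and 2.17 CPM in Il22r-/- and 3.04, 3.88 and 4.44 CPM in Il22r+/+. Flt4 and Ptprb, also outside the sum, had log2 changes of -0.01 and -0.04. Because the summed receptors were picked for more reads in Il22r-/-, the genotype difference in their sum follows from that choice. It depends on leaving Tek out and supports nothing further. In bulk RNA, more cells of a type and more RNA per cell cannot be told apart. Of 18 endothelial markers 4 had enough reads for a test, and Pecam1, an endothelial adhesion molecule that leukocytes also carry, rose. The number called higher was 6 with no filter on low counts, 3 in the DESeq2 Wald test, 2 without Il22r-/- replicate 3 or without Il22r+/+ replicate 3, and 0 without Il22r-/- replicate 2 or with limma on log2(FPKM + 1). Pecam1 had 19, 32 and 17 reads in Il22r-/- and 6, 6 and 12 reads in Il22r+/+ (log2 change 1.42 ± 0.43, edgeR adjusted p = 0.021). The Pecam1 call was lost without Il22r-/- replicate 2, Il22r+/+ replicate 1 or Il22r+/+ replicate 2 (edgeR adjusted p of 0.105, 0.0867 and 0.0791), in the DESeq2 Wald test (adjusted p = 0.0581) and with limma on log2(FPKM + 1) (adjusted p = 0.063). Cdh5, the endothelial cadherin, named after its values were seen, had 20, 38 and 4 reads in Il22r-/- and 2, 0 and 0 reads in Il22r+/+. Egfl7, the most abundant marker, had 3.33 ± 0.457 CPM in Il22r-/- libraries and 3.25 ± 0.827 CPM in Il22r+/+ (SD, n = 3 each). The 18 markers together held 9.66, 14 and 7.62 CPM in Il22r-/- and 6.67, 5.73 and 6.40 CPM in Il22r+/+. In Il22r+/+, 7 of the 18 had no reads (Emcn, Cldn5, Sox17, Sox18, Tal1, Lyl1 and Gpihbp1), and in Il22r-/- 0 of the 18 did. Those 7 genes were scarce in Il22r-/- too, with 7, 3, 1, 16, 1, 13 and 8 reads over its 3 libraries in that order. Flt1, Kdr and Tie1 together had 0.893, 1.92 and 0.985 CPM in Il22r-/- and 0.175, 0 and 0.237 CPM in Il22r+/+. Il22r-/- replicate 2 was thus highest in the 3 receptors, in the endothelial markers and in 12 macrophage and leukocyte markers (62.3, 91.0 and 30.9 CPM in Il22r-/-, against 11.6, 11 and 13.8 CPM in Il22r+/+). Of the 11 leukocyte markers tested 10 were called higher, and 6 with the stricter filter, where 23.6% of all tested genes were called higher in the main test. Adgre1, Tyrobp, Fcer1g and Mrc1 lay under 1 CPM in Il22r-/- replicate 3 and in every Il22r+/+ library. The stricter filter thus left these genes untested. C1qa, C1qb, Adgre1, Tyrobp and Mrc1 reached the main filter's level in 0 Il22r+/+ libraries and C1qc and Fcer1g in 1. All of these passed the main filter through Il22r-/-, so the count supports nothing further. Among the called, Tyrobp, C1qa and C1qb, genes of myeloid cells, rose by 4.61, 3.75 and 3.53 on the log2 scale, and Lyz2, macrophage lysozyme, had 29.5 ± 14.8 CPM in Il22r-/- libraries and 2.74 ± 0.474 CPM in Il22r+/+. The log2 change of Tyrobp was 5.83 without Il22r+/+ replicate 3, and those of C1qa and C1qb were 3.15 and 2.90 without Il22r-/- replicate 2. The part of these cells in the receptor counts was not tested.

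**Figure D3:**
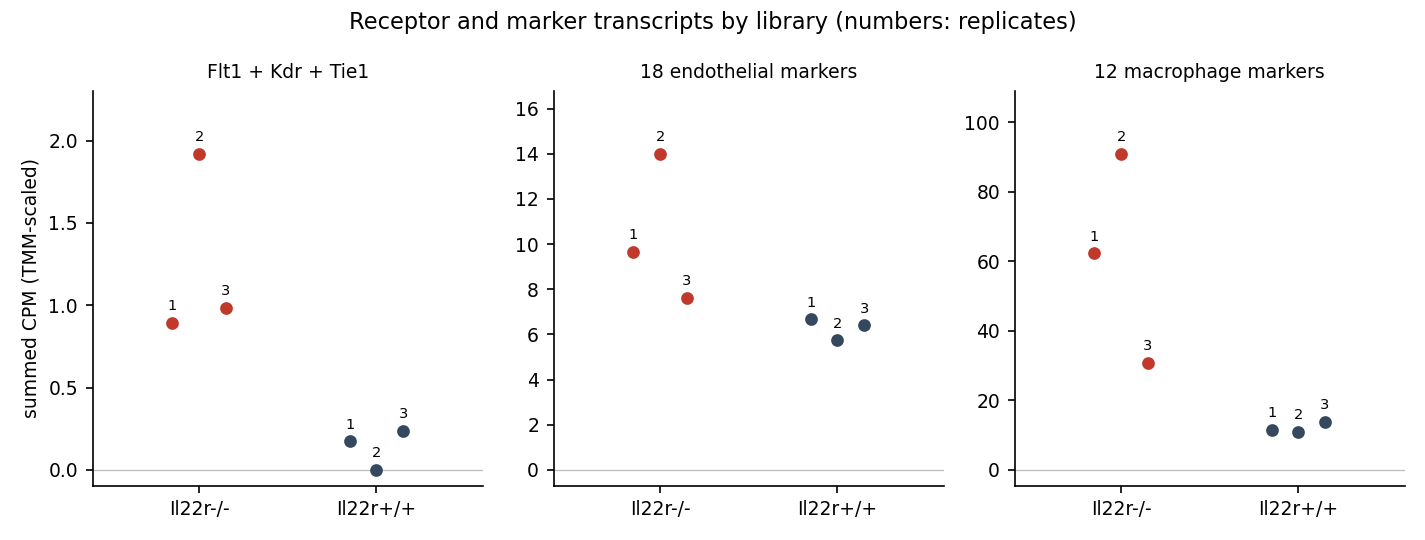
Summed TMM-scaled CPM (vertical axes) of Flt1, Kdr and Tie1, of 18 endothelial markers and of 12 macrophage and leukocyte markers in each library, with Il22r-/- in red on the left, Il22r+/+ in dark blue on the right and numbers for replicates. Il22r-/- replicate 2 is the highest point in all 3 panels, at 1.92, 14 and 91.0 CPM. Tek, which fell in Il22r-/-, is not in the receptor sum. The summed receptors were picked for more reads in Il22r-/-, so the genotype difference in that panel follows from the choice.

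Set on the length-scaled FPKM level, the order in Il22r-/- cells was Vegfa (29.0 ± 2.90), Vegfb (20.4 ± 3.53), Angpt2 (12.3 ± 0.711), Tek (0.498 ± 0.0719), Angpt1 (0.432 ± 0.121), Vegfc (0.392 ± 0.043) and Kdr (0.0917 ± 0.0342), with Pgf, Tie1 and Flt1 below (SD, n = 3). The libraries of Tek, Angpt1 and Vegfc overlapped in this order, as did those of Kdr with Pgf. In Il22r+/+ cells the order was Vegfa (37.3 ± 0.707), Vegfb (24.0 ± 1.23), Angpt2 (3.31 ± 0.737), Tek (0.826 ± 0.154), Angpt1 (0.265 ± 0.0416) and Vegfc (0.182 ± 0.0812), where Angpt1 and Vegfc overlapped, with Pgf and Kdr below.

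Both remaining ligands of these families, Vegfd and Angpt4, fell in Il22r-/- cells. On a list of 6 (Vegfd, Angpt4, Flt4, Nrp1, Nrp2 and Ptprb) all were tested, 2 fell and 0 rose, with a median log2 change of -0.02. That is 33.3% called, against 45.7% of all tested genes. Angpt4, a further ligand of TEK, had 2.73, 9.39 and 7.95 CPM in Il22r-/-, against 35.8, 36.0 and 38.0 CPM in Il22r+/+. It fell 5.50-fold (log2 change -2.46 ± 0.37, edgeR quasi-likelihood adjusted p = 0.00198). Vegfd, the other ligand of FLT4, had 65.3, 47.9 and 55.7 CPM in Il22r-/-, against 196.8, 184.8 and 216.6 CPM in Il22r+/+. It fell 3.54-fold (log2 change -1.82 ± 0.11, edgeR quasi-likelihood adjusted p = 1.24e-06). For both genes every Il22r-/- library lay below every Il22r+/+ library.

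Angpt2 was the predominant angiopoietin transcript in Il22r-/- libraries and Angpt4 in Il22r+/+ libraries. By FPKM, Angpt2 made up 88.6%, 72.5% and 75.9% of the summed Angpt1, Angpt2 and Angpt4 level in Il22r-/- libraries, against 18%, 13.4% and 18.8% in Il22r+/+ libraries. Angpt4 made up 7.90%, 24.6% and 22.2% in Il22r-/- and 80.6%, 85.0% and 80.2% in Il22r+/+. The summed level differed less, at 15.6 ± 0.841 FPKM in Il22r-/- and 19.7 ± 1.13 FPKM in Il22r+/+ (SD, n = 3 each). Among the VEGF ligands, Vegfd had the highest level in Il22r+/+ (78.7 to 92.6 FPKM, 58.0% ± 1.75 of the sum) and 20 to 27.1 FPKM (32.0% ± 3.78) in Il22r-/-, where Vegfa came first at 39.6% ± 5.07. The summed VEGF ligand level was 73.4 ± 2.60 FPKM in Il22r-/- and 146.6 ± 7.67 FPKM in Il22r+/+.

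**Figure D4:**
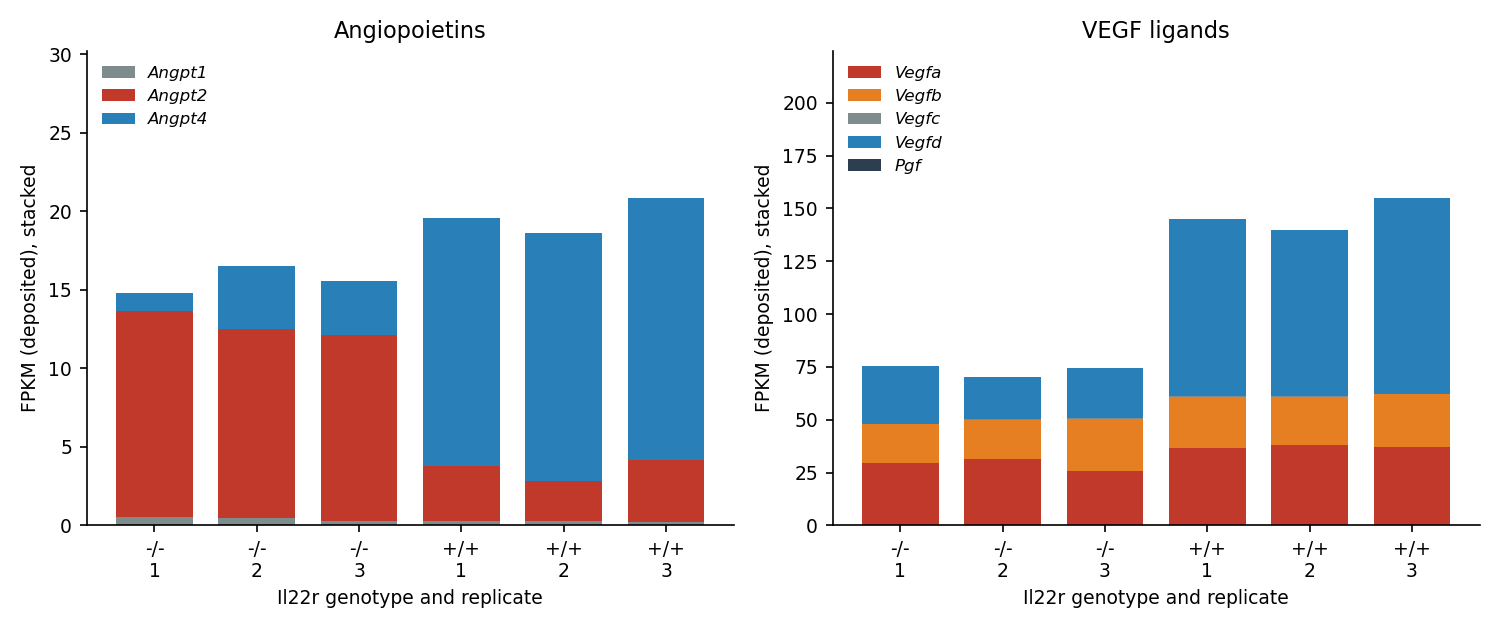
Deposited FPKM (vertical axes, stacked) of 3 angiopoietins (left) and 5 VEGF ligands (right) in each library, Il22r-/- first. Angpt2 makes up most of the angiopoietin bars in Il22r-/- (72.5% to 88.6%) and Angpt4 in Il22r+/+ (80.2% to 85.0%), and the Vegfd block is smaller in Il22r-/-.

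Markers of other cells that the preparation could hold also differed between the genotypes. Beside the counts below, 23.6% of all tested genes were called higher and 22.1% lower. Of 11 mesothelial and ovarian surface markers, all tested, 8 fell and 0 rose, with a summed level of 194.1 to 207.3 CPM in Il22r-/- libraries and 974.7 to 992.4 CPM in Il22r+/+ libraries. Bnc1, Gpm6a and Upk1b had log2 changes of -6.02, -5.60 and -5.11 (Bnc1 -6.67 without Il22r-/- replicate 1). The 3 that did not pass, named after their values were seen, were Krt7, Krt19 and Wt1. Their log2 changes were 0.98, 0.67 and -0.18 (edgeR adjusted p of 0.164, 0.132 and 0.388). Of 7 stromal fibroblast markers 6 were tested, 1 rose and 2 fell, at 225.7 to 384.8 CPM in Il22r-/- and 681.3 to 703.2 CPM in Il22r+/+. Col1a2 rose (log2 change 5.24, and 5.95 without Il22r+/+ replicate 1), and Dcn and Col3a1 fell (log2 changes -4.50 and -1.49). Pericyte and smooth muscle markers (9 of 13 tested) had 4 higher and 3 lower. Of the higher, Cspg4 reached the filter's level in 0 Il22r+/+ libraries and Des and Myh11 in 1. These passed the filter through Il22r-/-, so the count supports nothing further. Myh11, Cspg4 and Des had log2 changes of 4.29 (5.04 without Il22r+/+ replicate 1), 2.99 and 2.02. Acta2 had 0.74, a call lost without Il22r-/- replicate 2 or 3 or Il22r+/+ replicate 1 or 3. The 3 lower, named after their values were seen, were Mcam, Tagln and Notch3 (log2 changes of -0.69, -0.96 and -0.65). Over the 9 tested the median log2 change was -0.19. The list summed to 477.8 to 801.0 CPM in Il22r-/- and 571.1 to 669.2 CPM in Il22r+/+. Lymphatic markers (4 of 6 tested) had 1 higher, Reln (log2 change 3.87), and 1 lower, Mmrn1 (-1.40), at 13.5 to 18.9 CPM in Il22r-/- and 9.79 to 12.4 CPM in Il22r+/+. Of 5 theca markers only Star, which granulosa cells also express, was tested, and it fell (log2 change -1.19). The list summed to 78.9 to 109.7 CPM in Il22r-/- and 194.9 to 251.0 CPM in Il22r+/+. Nearly all of that was Star (means of 98.4 CPM in Il22r-/- and 224.0 CPM in Il22r+/+). Lhcgr, named after its values were seen, went the other way, with 23, 13 and 3 reads in Il22r-/- and 0, 0 and 3 reads in Il22r+/+. Of 8 oocyte markers Ddx4 and Gdf9 were tested and did not pass, at 0.591 to 3.05 CPM summed in Il22r-/- and 1.49 to 1.58 CPM in Il22r+/+. The part of any of these cells in the levels of Vegfd, Angpt4, Angpt2 or Vegfa was not tested.

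The co-receptors and the remaining receptors showed no difference past the threshold. Nrp2, a neuropilin that binds VEGFC, had 111.2 ± 12.9 CPM in Il22r-/- libraries and 111.6 ± 23.0 CPM in Il22r+/+ (log2 change -0.01 ± 0.15, edgeR adjusted p = 0.979). Nrp1, the neuropilin that helps VEGFA engage KDR, had 36.4 ± 9.64 CPM in Il22r-/- libraries and 32.1 ± 1.29 CPM in Il22r+/+ (0.19 ± 0.16, edgeR adjusted p = 0.376). Flt4, the receptor of VEGFC and VEGFD, had 2.27 ± 0.678 CPM in Il22r-/- libraries and 2.28 ± 0.815 CPM in Il22r+/+, and Ptprb, the phosphatase that acts on TEK, had 3.34 ± 0.226 CPM in Il22r-/- libraries and 3.44 ± 0.586 CPM in Il22r+/+ (log2 changes -0.01 ± 0.33 and -0.04 ± 0.22). Nrp2, Flt4 and Ptprb had log2 changes above 0 when scaled by library size alone.

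Downstream of the receptors, 20 genes on a list of 22 of the shared signalling route were tested. Of these 5 rose and 6 fell (median log2 change -0.06). That is 55.0% called, against 45.7% of all tested genes. The number that rose was 3, 2 and 2 without Il22r+/+ replicate 1, 2 and 3. Pik3r1, the regulatory subunit of phosphoinositide 3-kinase, rose 6.40-fold, with 858.8 ± 73.1 CPM in Il22r-/- and 134.1 ± 7.46 CPM in Il22r+/+ (log2 change 2.68 ± 0.10, edgeR adjusted p = 3.45e-08). Grb14, an adaptor that binds TEK and the insulin receptor, rose 2.96-fold to 619.0 ± 101.5 CPM in Il22r-/-, against 209.3 ± 16.3 CPM in Il22r+/+. Prkca, a protein kinase C, fell 2.01-fold. Of genes that VEGF or FOXO1 are known to induce in endothelium, 10 of 13 were tested, 3 rose and 5 fell (80.0% called, median log2 change -0.39). Esm1, an endothelial proteoglycan, rose 8.04-fold at low counts (1.31 ± 0.573 CPM in Il22r-/- and 0.157 ± 0.0664 CPM in Il22r+/+), while Igfbp3 and the peptide gene Apln fell 4.97-fold and 3.69-fold. Adamts1, a protease that binds VEGFA, had 212.5 ± 8.50 CPM in Il22r-/- libraries and 203.1 ± 23.7 CPM in Il22r+/+ and did not pass (edgeR adjusted p = 0.594).

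Vegfa is a textbook target of the hypoxia-inducible factors, and their genes were read beside it. Of 10 factors and regulators, all tested, 3 rose and 5 fell (80.0% called, median log2 change -0.10). Among all tested genes 45.7% were called, 23.6% higher and 22.1% lower, so calls in both directions are the general pattern here. The number of these factors and regulators that fell was 3 with library size alone and on leaving out any library but Il22r-/- replicate 3. Epas1 rose 2.31-fold, with 130.0 ± 21.8 CPM in Il22r-/- and 56.4 ± 2.36 CPM in Il22r+/+ (edgeR adjusted p = 1.88e-05), and Arnt2, a dimer partner, rose 1.87-fold. Hif1a fell 1.22-fold, with 377.8 ± 39.2 CPM in Il22r-/- and 459.2 ± 17.9 CPM in Il22r+/+ (edgeR adjusted p = 0.0279), a call lost on leaving out any library but Il22r-/- replicate 3 (edgeR adjusted p of 0.061 to 0.108) and with library size alone (-0.18, adjusted p = 0.112). Egln3, a prolyl hydroxylase that marks these factors for breakdown and is itself induced by hypoxia, fell 4.35-fold. Of 18 hypoxia target genes 17 were tested, 8 rose and 7 fell (88.2% called, median 0.06). Car9 and Adm fell 2.14-fold and 1.77-fold, while Ndrg1 and the glycolytic Eno1 rose 1.93-fold and 1.35-fold.

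Of 18 genes that restrain angiogenesis or hold its ligands in matrix, all tested, 4 rose and 9 fell (median log2 change -0.24). That is 72.2% called, against 45.7% of all tested genes. Timp3, a metalloproteinase inhibitor that also blocks VEGFA binding to KDR, fell 10.5-fold, with 134.8 ± 3.04 CPM in Il22r-/- and 1412 ± 122 CPM in Il22r+/+ (log2 change -3.39 ± 0.10, edgeR adjusted p = 8.09e-09). Syn3 overlaps 21.3% of its exon length on the opposite strand. Sema3f, a semaphorin that competes for neuropilins, fell 6.28-fold, and Thbs2, a secreted inhibitor of angiogenesis, rose 6.69-fold (2.68 ± 0.456 CPM in Il22r-/- and 0.396 ± 0.243 CPM in Il22r+/+). Thbs1, the gene with the highest level on the list, had 15110 ± 3207 CPM in Il22r-/- libraries and 15830 ± 203 CPM in Il22r+/+ and did not pass (log2 change -0.07 ± 0.14). Leaving out Il22r-/- replicate 3 brought it past (-0.27, edgeR adjusted p = 0.00818). Among other angiogenic growth factors and receptors, 16 of 18 tested, 3 rose and 6 fell (56.2% called, median -0.29). Fgf2, basic fibroblast growth factor, fell 3.54-fold (8.40 ± 0.590 CPM in Il22r-/- and 29.7 ± 1.18 CPM in Il22r+/+), its receptor gene Fgfr2 fell 2.87-fold, and Pdgfc and Pdgfd rose 1.70-fold and 1.32-fold.

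**Figure D5:**
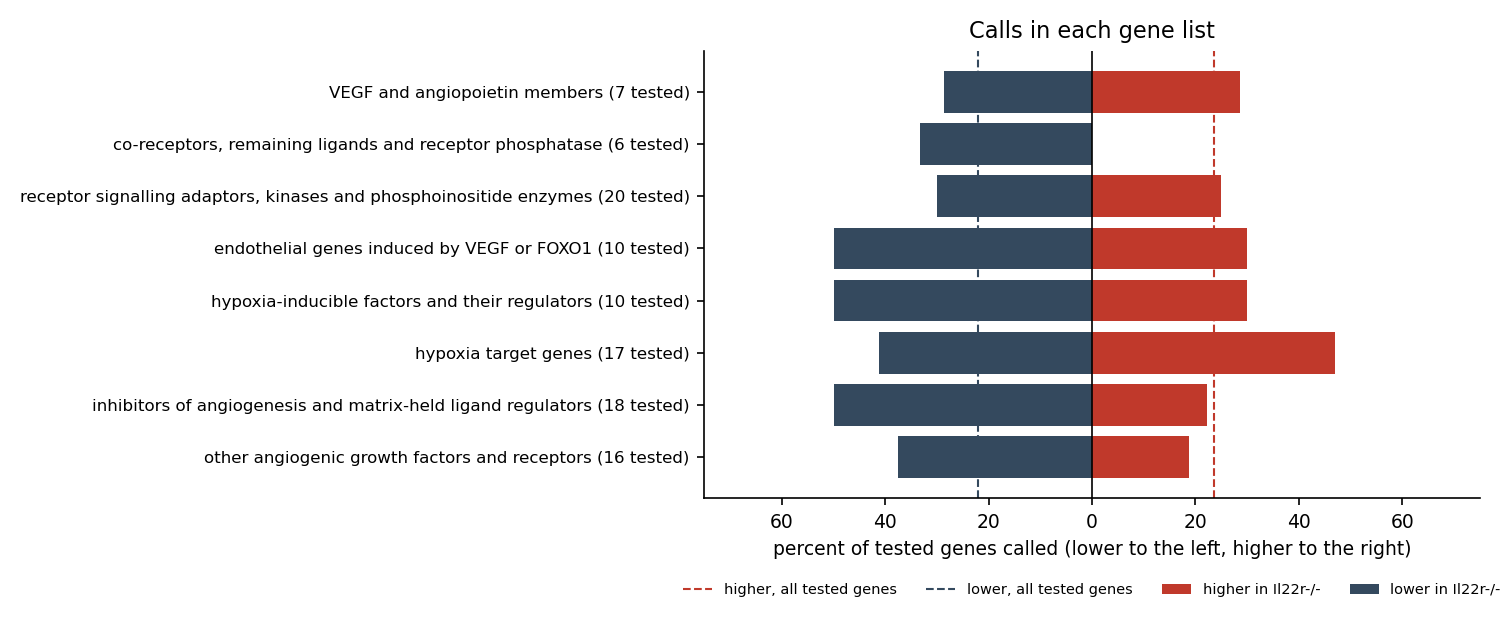
Percent of tested genes called higher (red, right) and lower (dark blue, left) in Il22r-/- for the members and 7 related gene lists, with dashed lines at the shares among all tested genes, 23.6% higher and 22.1% lower. The hypoxia target list has the widest bar to the right, and 3 lists reach 50% to the left.

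By Pearson's correlation of log2 CPM over the 6 libraries, the genes most like Vegfa among 10534 protein-coding genes were Nkiras1 (r = 0.9961), Ufm1 (0.9915) and Il11ra1 (0.9914). These 6 points come from 2 genotypes and share the scaling of each library, so r is given as a description. Il11ra1, a receptor chain for interleukin-11, had 29.9 ± 4.07 CPM in Il22r-/- libraries and 42.6 ± 0.811 CPM in Il22r+/+.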

How the data were processed

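The authors deposited raw read counts per gene for 6 libraries (55860 rows, of which 389 carry an identifier of the authors' own in place of an Ensembl one and hold 0.274% of reads). The submitters' processing notes name build mm10 and the counter featureCounts (1.5.0-p3). For the aligner, the strand setting and any read filter, nothing is stated in the labels. The authors also deposited FPKM values, which equal the counts divided by gene length and by a library constant of 0.936 to 1.05 times the count total.

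Counts were filtered with filterByExpr (15227 genes kept), scaled with TMM and tested in edgeR 4.0.16 (robust quasi-likelihood fit, genotype as the only term, all 6 libraries). R was 4.3.3. Benjamini-Hochberg adjustment ran over every gene tested. Fold changes are Il22r-/- over Il22r+/+. The step was tested on simulated data. The labels do not say whether libraries came from separate animals or cultures, so p-values measure only the spread between these libraries, which may be technical. Replicates differed beyond sampling noise (chi-square per gene of 4.78 to 27.8), so none was counted as a duplicate. Intervals are exact at 95%, and they and the floor of 3 reads cover counting error only. No set test was made: lists are described by counts and medians. The filter favours calls toward the genotype that let a gene through. Fshr, Esm1, Thbs2, Pecam1, Reln and Col1a2 passed through Il22r-/-, and Egln3, Apln and Bnc1 through Il22r+/+.

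Alternatives were library size alone, DESeq2 1.42.0 as a Wald test or as size factors for edgeR, limma 3.58.1 (voom, and log2(FPKM + 1) or log2(FPKM + 0.1)), no filter and a stricter filter (1 CPM in 3 libraries), a replicate block, and each library left out. The members and lists were chosen with earlier results of these data known. Beyond the members, up to 3 called genes of each list by size of change and the one with the highest mean CPM over all libraries were named (the 2 most abundant where none was called). Where a symbol had 2 rows, the lower Ensembl number was used. Gene positions and exon overlaps came from GENCODE M21.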

Additional observations from a re-analysis of the deposited data

How the results depend on the processing

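The number of genes called, 6963, ran from 6405 with the replicate block to 7476 with no filter, and from 5411 to 8243 with 1 library left out. Of the members, 4 were called, 3 to 5 under the other settings and 2 to 5 with 1 library left out, where 2 is the count without Il22r-/- replicate 2. All 103 alternative values of the 7 tested members kept their direction, 10 lost a call and 7 gained one. Vegfa and Angpt2 kept their call throughout. The causes were not tested. Same-numbered libraries did not deviate together (correlations of 0.026, -0.0406 and -0.0278). Whether the numbers pair libraries is not stated in the labels, and low correlations over all genes cannot settle it. With the replicate block, 3 members and 6405 genes were called, and Tek was the member lost. For 54 genes named outside the members, 760 of 806 alternative values kept direction and call. The granulosa marker Inha (log2 change -0.30, edgeR adjusted p = 0.0508) passed under 6 of the 15 alternatives. The stricter filter left no value for Vegfc and Kdr. Uncalled genes changed sign as follows. With library size alone the log2 change was 0.09 for Flt4, 0.10 for Nrp2, 0.06 for Ptprb, 0.03 for Thbs1 and 0.08 for Ddx4, with limma-voom 0.01 for Flt4 and Nrp2, and with the replicate block 0.01 for Nrp2. With 1 library left out, the log2 changes that changed sign at least once ran from -0.30 to 0.32 for Flt4, from -0.06 to 0.28 for Nrp1, from -0.17 to 0.11 for Nrp2, from -0.16 to 0.08 for Ptprb, from -0.01 to 0.16 for Adamts1, from -0.27 to 0.04 for Thbs1, from -0.14 to 0.22 for Egfl7 and from -1.34 to 0.34 for Ddx4. Of 480 counts of called list genes, 450 stayed within 1.5 times the main count. The others, beside those given in the report, were 1 mesothelial marker higher with no filter or without Il22r-/- replicate 3, 2 stromal markers higher under 6 alternatives and 1 theca marker higher under 4. Depth limits Pgf, Flt1, Tie1, Kdr and Vegfc, each with at most 22 reads in any library.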
